A study of Mus musculus with 12 samples.

Results

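The comparison described here set MC3T3-E1 cells given 25-hydroxyvitamin D (25(OH)D) together with ZK191784 against untreated control cells, and so gives the difference from control that was present when both were given. Its members were the 3 libraries of the combination and the 3 control libraries, 6 of the 12 libraries of the series, chosen by their labelled treatment, and all 14394 genes tested of the 56691 in the count table. MC3T3-E1 is a mouse pre-osteoblast line, here wild type. All groups had been cultured for 28 days in osteogenic medium. It held dexamethasone at 0.1 µM, ascorbic acid at 50 µg/ml and the phosphate source beta-glycerophosphate at 10 mM, so the controls carried the glucocorticoid too. The combination cells received 100 µM 25(OH)D and 100 µM ZK191784 for 24 h from day 27, and the control cells neither. The doses are given as labelled, and nothing in the sources at hand allows the unit of the 25(OH)D dose to be checked. Cells given 100 µM 25(OH)D alone for the same 24 h (3 libraries) serve as a second reference. The fourth group, given 100 µM 25(OH)D and a further 4 mM beta-glycerophosphate for those 24 h (3 libraries), entered the fit and is shown in 1 figure. No group analysed here received ZK191784 alone, so an effect of the compound by itself and its effect on the 25(OH)D response cannot be told apart. The labels do not say whether the libraries of a group came from separate cultures, so p-values measure the spread between these libraries, which may be technical.

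25(OH)D is the circulating precursor of the hormone 1,25-dihydroxyvitamin D. Cells that carry the 1-alpha-hydroxylase Cyp27b1 convert the one into the other, the hormone binds the vitamin D receptor (Vdr), and the receptor pairs with a retinoid X receptor on DNA to raise or lower its target genes. In bone-forming cells the known targets include the phosphoprotein osteopontin (Spp1), the receptor itself and the catabolic 24-hydroxylase Cyp24a1, which ends the signal. ZK191784 is a synthetic ligand of the vitamin D receptor that has been described as acting as an agonist or an antagonist depending on the tissue.

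The deposited counts summed to between 4026050 and 4762357 in the control libraries and between 4161006 and 5072719 in those of the combination. All 10 osteoblast markers listed were detected, led by Sparc, Col1a1 and Col1a2, and their summed level was 127290 to 142928 CPM (counts scaled to a common library size) in control and 74536 to 85509 CPM in the combination. Fewer cells of a type and less RNA per cell cannot be told apart in such bulk samples. Markers of other cell types were far lower. Macrophage and osteoclast markers, led by Ptprc, summed to 371 to 566 CPM in control and 348 to 484 CPM in the combination, chondrocyte markers to 126 to 292 and 106 to 212 CPM, and muscle markers to 62.6 to 147 and 52.0 to 117 CPM with Myog at 0 in every library. Endothelial markers summed to at most 66.2 CPM with Cdh5 at 0 in every library, and adipocyte markers to at most 9.99 CPM. None of these 5 lists had a called member, and all overlapped between the groups. The libraries also differed along an axis that ran with the balance of ribosomal protein counts to pseudogene and predicted-gene counts, which held 58.9% of the variance within groups. On the log2 scale that balance stood at −1.77, −1.88 and −0.66 for the control libraries and −0.87, −1.22 and −1.67 for the combination, so the groups overlapped. The share of counts on genes named as ribosomal RNA was 4.59 to 8.48% in control and 8.78 to 11.9% in the combination, without overlap, and its part in the results was not tested.

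In the combination 104 genes passed the test against control, which was edgeR's quasi-likelihood test with a Benjamini-Hochberg adjusted p under 0.05. They are 0.723% of the genes tested. Of them 73 were higher (0.507% of the genes tested) and 31 lower (0.215%), and 97 were protein coding by RefSeq among the 102 that matched. The rises were the larger changes. The median log2 fold change was 1.63 among the genes that rose and −0.97 among those that fell, 57 rose at least 2-fold, and 14 fell at least 2-fold. In the same 12-library fit 25(OH)D alone gave 1250 calls against the same 3 control libraries (8.68% of genes tested, with 685 or 4.76% higher and 565 or 3.93% lower). The combination differed from 25(OH)D alone in 508 genes (3.53%, with 205 or 1.42% higher and 303 or 2.11% lower). At an unadjusted p under 0.05 the combination differed from control in 960 genes, where 5% of the genes tested would be 720. Control and combination libraries did not overlap in CPM in any of the 104 called genes. The same held for 1694 of all genes tested (11.8%), so most genes without overlap were not called.

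The count rested on single libraries, while the direction of the called genes did not turn in any alternative run. Without 1 library it was 40 (control library 1 left out), 47 (control library 2), 119 (control library 3), 48 (combination library 1), 34 (combination library 2) or 62 (combination library 3). Of the 104 genes 32 were called in all 6 of these omissions and 27 in all 13 alternatives. Lost calls given below are those of single-library omissions unless another setting is named. With the libraries of the 2 groups alone 40 of the 104 held. Tceal9, Ldha and Itpr2, each lost in 1 omission, were lost there too (edgeR adjusted p = 0.0616, 0.0839 and 0.107). Among those 27 were Inmt, Orm3, Vdr, Tgm2, Spp1, Dgat1, Klf4, Klhl33, Uaca, Fam102a, Il34, Fdxr, Dpep1, Flrt1, Col11a1, Hp, Pitpnm2, Fap, Sesn1, Ier3, Ksr1, Itga1, Map4k4, Ttyh3, Mylk3 and Hoxa10.

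**Figure D1:**
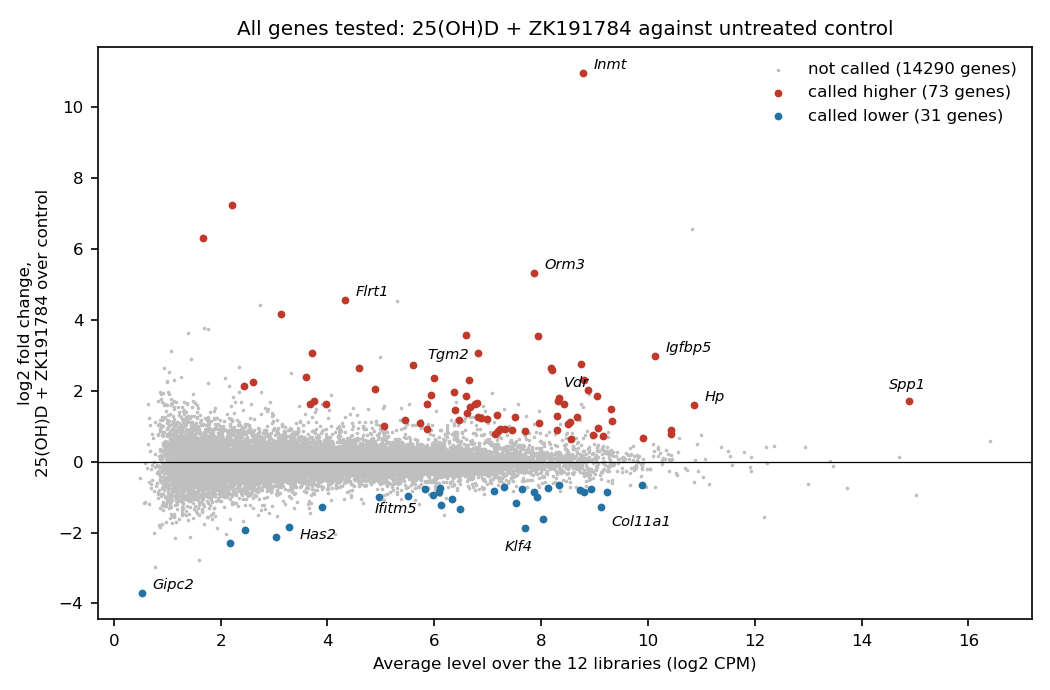
Log2 fold change of the combination over control (vertical axis) against the average level over the 12 libraries in log2 CPM (horizontal axis) for the 14394 genes tested, with the 73 genes called higher in red, the 31 called lower in blue and the others in grey. The called rises lay mostly further from 0 than the called falls. Inmt had no counts in control, and its height depends on the prior count of the fit.

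The promoter windows of 4 of the genes that rose are printed, picked on their values as genes nearly silent in control cells, and their levels are given further on. The 4 are Inmt, the neighbouring orosomucoid genes Orm3 and Orm2, and the complement gene C3. Other genes were as nearly silent. Of those, Psg17 is among the holders of TTGCNNAA listed below, and Flrt1 and Trarg1 are not. A window was not found for every called gene. Each window holds the 250 bases before the gene's start in RefSeq's GRCm38.p6, which is an older build than the mm39 of the counts, written 5′ to 3′ on the gene's strand. Capitals mark matches to the TATA box letters TATAAA for Inmt and to the letters TTGCNNAA, a form of the C/EBP site, for the others. The Orm3 and Orm2 windows also held TATAAA, left in lower case here, and the C3 window did not. The Inmt window held no TTGCNNAA.
Inmt, chr6:55174991-55175240, minus strand: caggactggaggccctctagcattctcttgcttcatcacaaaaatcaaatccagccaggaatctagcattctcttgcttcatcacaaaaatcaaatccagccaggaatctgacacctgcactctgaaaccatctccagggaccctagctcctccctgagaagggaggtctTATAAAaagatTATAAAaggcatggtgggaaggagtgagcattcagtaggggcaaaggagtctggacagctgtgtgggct
Orm3, chr4:63355908-63356157, plus strand: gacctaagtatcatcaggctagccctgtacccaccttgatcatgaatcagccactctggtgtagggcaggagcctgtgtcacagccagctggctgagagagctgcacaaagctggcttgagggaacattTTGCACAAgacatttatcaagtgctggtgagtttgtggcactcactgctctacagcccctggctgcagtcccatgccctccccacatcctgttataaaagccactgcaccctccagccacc
Orm2, chr4:63362199-63362448, plus strand: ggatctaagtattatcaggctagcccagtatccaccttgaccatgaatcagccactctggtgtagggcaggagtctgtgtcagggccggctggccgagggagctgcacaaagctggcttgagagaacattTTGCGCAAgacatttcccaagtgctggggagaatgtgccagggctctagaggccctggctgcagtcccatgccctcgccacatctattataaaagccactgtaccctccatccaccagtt
C3, chr17:57228137-57228386, minus strand: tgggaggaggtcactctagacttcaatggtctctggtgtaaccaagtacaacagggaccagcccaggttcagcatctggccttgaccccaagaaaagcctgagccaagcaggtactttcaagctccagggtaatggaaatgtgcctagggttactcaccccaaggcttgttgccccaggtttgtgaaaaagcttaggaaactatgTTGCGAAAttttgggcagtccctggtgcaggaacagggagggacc
The Inmt window held TATAAA at 80 and again at 69 bases before the start. In Orm3 the 8 letters TTGCACAA began 121 bases before the start, in Orm2 TTGCGCAA began 120 bases before it, and in C3 TTGCGAAA began 45 bases before it. The Orm3 and Orm2 windows were alike, with 219 identical letters at 255 aligned positions (85.9%).

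Windows were found for 54 of the called rises and 24 of the called falls. A gene with several windows was counted if any of them held the letters (32851 windows for 27025 symbols). Searched on both strands, TTGCNNAA was in 12 of the 54 rises (22.2%) and in 1 of the 24 falls (4.17%). It was in 10.8% of the 27025 gene symbols with a window and in 8.97% of those of the tested genes. The 12 were Arvcf, C3, Fam43a, Fcgrt, Gadd45a, Mylk3, Orm2, Orm3, Prxl2b, Psg17, Samhd1 and Spp1. TATAAA was in 8 of the 54 rises (14.8%) and in 4 of the 24 falls (16.7%). It was in 14.3% of all symbols and 8.31% of those of the tested genes. The direct repeat named DR3 is the element known for the vitamin D receptor and was matched with its usual degenerate letters. DR3 was in none of the 54 rises or 24 falls. Of all symbols 0.255% held it, and of those of tested genes 0.210%. Allowing 1 mismatch, DR3 was in 2 of the 54 rises (Ptprs and Zfp503) and none of the 24 falls. The shares were then 5.72% of all symbols and 4.76% of those of tested genes. These are matches of letters in a short window and are not sites.

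Vdr itself rose to the level it had with 25(OH)D alone. It stood at 50.8, 70.6 and 61.9 CPM in the 3 control libraries and at 381, 392 and 373 CPM in the combination, where the 3 libraries lay close together and far above control. That is 6.25-fold, or 2.64 ± 0.17 (SE) on the log2 scale (edgeR adjusted p = 1.08e-05). Here and below, a value with ± is a log2 fold change with its SE (3 libraries a group), and levels are listed in the order of the libraries. With 25(OH)D alone it was 381, 476 and 342 CPM, and the difference of the combination from it was −0.06 ± 0.16 with a 95% interval from −0.42 to 0.29. Fdxr, the ferredoxin reductase that passes electrons to the mitochondrial P450 enzymes and so to vitamin D hydroxylases, rose from 29.3, 23.6 and 30.5 to 67.4, 84.1 and 77 CPM (2.74-fold, 1.46 ± 0.16, adjusted p = 0.00101). It lay below its level with 25(OH)D alone, 131, 139.6 and 105 CPM. These were the only called members of the 15 tested genes of vitamin D reception and metabolism, whose median log2 fold change was 0.11 against −0.02 over all genes tested. They were 13.3% of that list, against 0.723% called of all genes tested.

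The enzymes at both ends of the pathway were close to undetected. Cyp24a1 had 0 counts in all control libraries, 3 counts over the combination libraries and 40 over those of 25(OH)D alone, too few in the combination for a fold (adjusted p = 0.998). The activating hydroxylase Cyp27b1 had 4 counts in each of the 2 groups. Cyp2r1, which makes 25(OH)D from vitamin D, had 23 counts in control and 17 in the combination. Cyp27a1, which can do the same, differed by 0.08 ± 0.53 on the log2 scale and was not called. For genes too rare for the fit the exact permutation test of 3 against 3 libraries cannot give a p under 0.1, and it gave 1.0 for Cyp27b1 and 0.8 for Cyp2r1.

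Genes known to respond to vitamin D moved in 1 direction where they were called. Of 31 tested members of the list of classical vitamin D response genes 6 rose (Vdr, Spp1, Il34, Gadd45a, Igfbp5 and Cebpb), none fell at the threshold, and the median was 0.15. The called share was 19.4%, against 0.723% of all genes tested. The list was chosen with earlier results known, so this is a description. The other genes of the list did not pass. Spp1 had by far the largest gain in CPM, from 3144, 3857 and 3184 in control to 11501, 10539.5 and 11205 in the combination (3.26-fold, 1.71 ± 0.14, adjusted p = 6.93e-05). Osteopontin, its product, is a secreted phosphoprotein that binds mineral and integrins. It reached 49005, 47559 and 58088 CPM with 25(OH)D alone, and the combination lay 4.65-fold below that (log2 −2.22 ± 0.14, adjusted p = 4e-06).

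Igfbp5, a binding protein of insulin-like growth factors, was at 10.6, 21.9 and 37.6 CPM in control and at 238, 166 and 148 CPM in the combination, a rise of 2.98 ± 0.43 (adjusted p = 0.00622). It reached 3052, 2371 and 1573 CPM with 25(OH)D alone, so the groups stood in 3 separate bands. Gadd45a, a growth arrest and DNA damage gene, rose from 7.19, 6.32 and 15.5 to 155, 103 and 83.3 CPM (11.8-fold, 3.56 ± 0.49, adjusted p = 0.00464). Its level with 25(OH)D alone spread from 262 to 682 CPM, above the combination in every library. Il34, a ligand of the macrophage colony-stimulating factor receptor, rose from 11.3, 10.5 and 6.9 to 40.5, 35.7 and 36.3 CPM (1.97 ± 0.21, adjusted p = 0.000733). Cebpb, a transcription factor of the C/EBP family, rose from 405, 450.0 and 462 to 764, 684 and 639.7 CPM, the smallest change of the 6 (0.66 ± 0.13, adjusted p = 0.0421). Igfbp5 lost its call without control library 2 (adjusted p = 0.0575), and Cebpb when any 1 library was left out other than control library 3 (adjusted p from 0.108 to 0.259). Without the filter on low counts Igfbp5 and Gadd45a missed the threshold (adjusted p = 0.0665 and 0.0512).

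**Figure D2:**
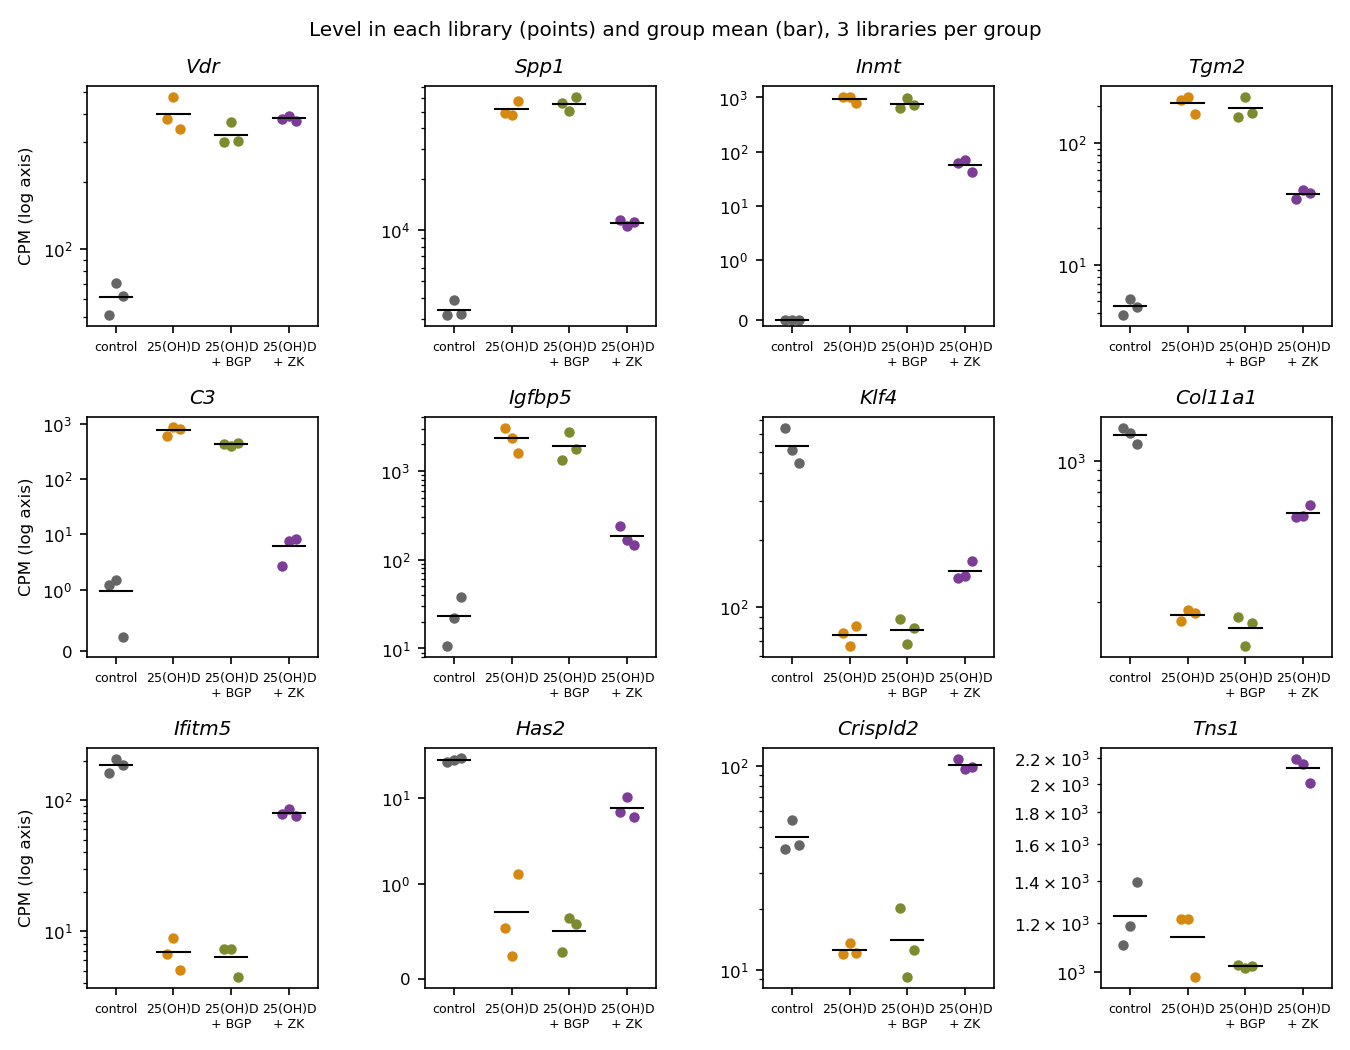
Level of 12 genes in CPM on a log axis in each library (points), with the mean of 3 libraries as a bar, for control, 25(OH)D, 25(OH)D plus beta-glycerophosphate (BGP) and 25(OH)D plus ZK191784. The combination stood with 25(OH)D alone for Vdr, between control and 25(OH)D alone for the 9 genes from Spp1 to Has2, and above both for Crispld2 and Tns1.

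Several genes that were nearly silent in control cells were among the largest rises. Inmt, an N-methyltransferase of indole amines, had 0 counts in all 3 control libraries and 61.4, 70.6 and 41.5 CPM in the combination. Against 3 counts over the control group it was at least 251-fold higher (adjusted p = 5.94e-06). Cells given 25(OH)D alone had 1006, 1013 and 794 CPM, and the combination differed from them by −4.02 ± 0.25 on the log2 scale (adjusted p = 1.45e-05). Flrt1, a leucine-rich repeat membrane protein, had 0, 1.69 and 0.714 CPM in control and 22.1, 20.7 and 17.8 CPM in the combination (23.6-fold, 4.56 ± 0.52, adjusted p = 0.00115). Its difference from 25(OH)D alone (31, 34.5 and 21.7 CPM) was −0.52 ± 0.37 with a 95% interval from −1.33 to 0.29. Trarg1, which takes part in the traffic of the glucose transporter GLUT4, had 0.959, 0.211 and 0.476 CPM in control and 3.89, 6.03 and 4.13 CPM in the combination (3.05 ± 0.50, adjusted p = 0.0135). Trarg1 lost its call without control library 2 or combination library 2 (adjusted p from 0.0667 to 0.0699).

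Acute-phase proteins, which the liver secretes in inflammation, included genes of large rise. Of 12 tested members 3 rose (Orm3, Hp and Orm2), none fell, and the median was 0.26. That is 25% of the list, against 0.723% called of all genes tested. The list was chosen with earlier results known. Orm3 went from 0.719, 1.26 and 2.85 CPM in control to 69, 68.5 and 56.7 CPM in the combination (39.6-fold, 5.31 ± 0.32, adjusted p = 5.94e-06). Its neighbour Orm2 went from 2.4, 2.11 and 5 to 23.5, 23.1 and 15.7 CPM (6.55-fold, 2.71 ± 0.50, adjusted p = 0.0269). The Orm genes are close copies, so reads may be split between them and each level is uncertain. Hp, which encodes the haemoglobin-binding protein haptoglobin, was not silent in control. It rose from 285, 442 and 277 to 1057, 982 and 986 CPM (3.01-fold, 1.59 ± 0.18, adjusted p = 0.00123), and with 25(OH)D alone it was 2534, 3253 and 3496 CPM. For all 3 the combination was below 25(OH)D alone, 7.48-fold for Orm3, 3.99-fold for Orm2 and 3.07-fold for Hp (adjusted p = 3.25e-05, 0.0197 and 0.000336).

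C3, the central complement protein, rose only to a low level. It had 1.2, 1.48 and 0.238 CPM in control, 2.66, 7.47 and 8.26 CPM in the combination and 593, 851 and 806 CPM with 25(OH)D alone. The rise was 6.03-fold (2.59 ± 0.49, adjusted p = 0.0306), and the difference of the combination from 25(OH)D alone was −6.94 ± 0.41 (adjusted p = 2.64e-06). C3 was the only called member of 16 tested complement genes (median 0.24). Among 14 chemokines and cytokines Il34 and Cxcl12 rose (median 0.25), and both also stand in the list of 11 osteoclast regulators. The called shares of these lists were 6.25%, 14.3% and 18.2%, against 0.723% of all genes tested. Cxcl12, the ligand of the receptor Cxcr4, went from 28.1, 30.8 and 50.7 to 129, 121 and 110.5 CPM (1.72 ± 0.29, adjusted p = 0.0145), against 798, 723 and 489 CPM with 25(OH)D alone. Orm2 and Cxcl12 lost their calls without control library 1 or 2 or combination library 1 or 2 (adjusted p from 0.0864 to 0.156 and from 0.0538 to 0.101). C3 lost its call when any 1 library was left out other than combination library 1 (from 0.0666 to 0.15).

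Among the 12 largest rises were enzymes and transporters of the cell surface and matrix. Tgm2, the transglutaminase that crosslinks matrix proteins, rose from 3.84, 5.27 and 4.52 to 35, 41 and 38.9 CPM (8.36-fold, 3.06 ± 0.22, adjusted p = 1.93e-05), and was 226, 237 and 172 CPM with 25(OH)D alone. Sulf2, an extracellular sulfatase that edits heparan sulfate, rose from 44.8, 38.6 and 57.8 to 437, 326 and 196 CPM (6.79-fold, 2.76 ± 0.45, adjusted p = 0.0123). The magnesium transporter gene Slc41a3 rose from 3.84, 4.22 and 10.7 to 100.3, 85.3 and 36.3 CPM (11.8-fold, 3.57 ± 0.68, adjusted p = 0.0333). For both the libraries of the combination spread over more than a factor of 2, and combination library 3 was the lowest. Mep1a, a secreted metalloprotease, rose from 2.64, 1.48 and 4.52 to 22.1, 20.5 and 11.5 CPM (2.65 ± 0.46, adjusted p = 0.0195). Tgm2 held its call in every alternative. The others lost theirs without control library 1 or 2 or combination library 2, and Slc41a3 also without control library 3 or combination library 1 and Mep1a without combination library 1. The adjusted p then ran from 0.0638 to 0.0971 for Sulf2, 0.0535 to 0.219 for Slc41a3 and 0.069 to 0.113 for Mep1a.

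Of the tested matrix and marker proteins of osteoblasts 10.7% were called, against 0.723% of all genes tested. This list is not the shorter one of 10 osteoblast markers whose summed level was given above. The lists were chosen with earlier results known, so this is a description. Of 28 tested matrix and marker proteins of osteoblasts 2 rose (Spp1 and Fap) and 1 fell (Ifitm5), with a median of −0.23, where 25(OH)D alone had a median of −1.42 against the same control libraries. Ifitm5, a membrane protein of mineralizing osteoblasts, fell from 162, 208 and 188 to 78.4, 85.8 and 75.4 CPM (log2 −1.22 ± 0.20, adjusted p = 0.0148). Its level with 25(OH)D alone was 6.69, 8.92 and 5.02 CPM, so the combination lay in between and 3.53 ± 0.24 above 25(OH)D alone (adjusted p = 5.38e-06). Fap, a membrane serine protease of activated fibroblasts, rose from 40.0, 47.4 and 55.9 to 202, 169.7 and 142 CPM (log2 1.84 ± 0.22, adjusted p = 0.00144) and was above its level with 25(OH)D alone, 109, 106 and 63.1 CPM (log2 0.89 ± 0.21, adjusted p = 0.0389). It led the fibroblast and tendon marker list, whose summed level was 93.5 to 138 CPM in control and 196 to 288 CPM in the combination. The other detected markers of that list were not called. Sparc, the most abundant osteoblast marker, stood at 79121, 87932 and 48404 CPM in control and 35616, 37242 and 39359 CPM in the combination, a difference of −0.94 ± 0.23 that did not pass (adjusted p = 0.101). Ifitm5 lost its call without control library 2 or any combination library (adjusted p from 0.0801 to 0.0911).

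The SIBLING phosphoproteins, a group of related secreted proteins that bind bone mineral, split. Spp1 was the 1 called member of 4 tested. Ibsp, bone sialoprotein, was at 9902, 10939 and 20186 CPM in control and 5764, 4694 and 3504 CPM in the combination. So the groups did not overlap, as in 11.8% of all genes tested. The difference was −1.55 ± 0.34 and missed the threshold (adjusted p = 0.066), and it passed in 2 of the 13 alternatives, those with DESeq2 and with the library ratio as covariate. Ibsp was 117, 109 and 52 CPM with 25(OH)D alone, and the combination lay 5.65 ± 0.40 above that (adjusted p = 9.35e-06). Dmp1 and Mepe, made mainly by osteocytes, were low and not called, with differences of 0.54 ± 0.49 and −0.88 ± 0.67.

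Collagens had a low median and 1 call, which is 3.7% of the chains tested against 0.723% of all genes tested. Of 27 tested chains 1 fell (Col11a1), none rose, and the median was −0.57 against −0.02 over all genes tested, with 6 of the 27 above 0. The median with 25(OH)D alone was −1.14. Col11a1, a chain of the minor fibrillar collagen that nucleates fibrils, went from 1457, 1368 and 1207 to 529, 531 and 603 CPM (2.42-fold lower, log2 −1.28 ± 0.15, adjusted p = 0.0012). It was 161, 181 and 177 CPM with 25(OH)D alone. Col1a1, a chain of the main bone collagen, was at 22486, 26789 and 31744 CPM in control and 17955, 17559.9 and 13122 CPM in the combination. It did not pass the test (−0.74 ± 0.20, adjusted p = 0.166), and its groups did not overlap, as in 11.8% of all genes tested. Col1a2, its partner chain, overlapped between the groups (−0.63 ± 0.44, adjusted p = 0.998).

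Of 28 genes of collagen processing and crosslinking Tgm2 rose and Lox fell, with a median of −0.32. These calls were 7.14% of that list, against 0.723% of all genes tested. Lox, the lysyl oxidase that crosslinks collagen and elastin, fell from 1199.9, 1514 and 1160.5 to 828, 831 and 779 CPM (−0.67 ± 0.13, adjusted p = 0.0421), close to its level with 25(OH)D alone (788, 941 and 903 CPM, difference −0.11 ± 0.13, 95% interval from −0.40 to 0.18). Thbs2, a thrombospondin, was the only called member of 31 matricellular and adhesion genes and fell from 921, 824 and 744 to 502, 478 and 443 CPM (−0.81 ± 0.13, adjusted p = 0.0112). Has2, a hyaluronan synthase and the only called member of 15 hyaluronan genes, fell from 26.4, 27.8 and 29.7 to 6.96, 10.4 and 6.09 CPM (3.59-fold lower, −1.84 ± 0.33, adjusted p = 0.0218). Has2 was nearly silent with 25(OH)D alone at 0.535, 0.241 and 1.32 CPM. Cilp2, a cartilage matrix protein, fell from 13.7, 17.9 and 11.2 to 3.28, 3.13 and 4.78 CPM (−1.93 ± 0.39, adjusted p = 0.0434). None of 10 small leucine-rich proteoglycans and none of 40 matrix proteases and inhibitors passed. The calls of Lox, Thbs2 and Cilp2 were lost when any 1 library was left out other than control library 3, and that of Has2 when any 1 library was left out. The adjusted p then ran from 0.115 to 0.227 for Lox, 0.0538 to 0.0808 for Thbs2, 0.113 to 0.267 for Cilp2 and 0.0509 to 0.14 for Has2.

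Among transcription factors the clearest fall was that of Klf4, a Krüppel-like factor known from stem cells and as an early response gene. It went from 642, 508 and 447 to 136, 138 and 160.5 CPM (3.68-fold lower, log2 −1.88 ± 0.17, adjusted p = 0.000179), and to 76, 66.3 and 82.1 CPM with 25(OH)D alone. Mef2c, a MADS-box factor of muscle and osteocytes, fell from 428, 497 and 319.7 to 181, 192 and 179.8 CPM (−1.17 ± 0.18, adjusted p = 0.01). It was the 1 called member of 27 osteoblast transcription factors, whose median was 0.00. Runx2, the master regulator of osteoblasts, did not move detectably. It was 147, 188 and 189 CPM in control and 181, 151 and 145 CPM in the combination, a difference of −0.14 ± 0.15 with a 95% interval from −0.47 to 0.20. Runx2 was lower with 25(OH)D alone (93.1, 86.8 and 69.7 CPM), and the combination lay 0.93 ± 0.16 above that (adjusted p = 0.00451). Hoxa10, which the naming rule does not cover and which was picked on its values, rose from 33.8, 38.8 and 43.3 to 119, 84.9 and 96.1 CPM (1.37 ± 0.19, adjusted p = 0.00576). Mef2c lost its call without control library 1 or any combination library (adjusted p from 0.0502 to 0.0674).

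The list of bone morphogenetic protein (BMP) and TGF-beta genes had 1 rise (Pmepa1) and 2 falls (Bmp4 and Chrdl1) among 38 tested. Its median was 0.02, and 7.89% of its tested genes were called, against 0.723% of all genes tested. Bmp4, a ligand of the BMP pathway, fell from 228, 242 and 205 to 131, 120.1 and 129.8 CPM (−0.83 ± 0.13, adjusted p = 0.01). Chrdl1, a secreted antagonist of such ligands, fell from 209, 200.0 and 199 to 104, 61.2 and 76.1 CPM (−1.33 ± 0.24, adjusted p = 0.0269). Pmepa1, a feedback inhibitor of TGF-beta signalling, rose from 89.9, 137 and 99.2 to 253, 236 and 224 CPM (1.13 ± 0.18, adjusted p = 0.01). So a ligand and an antagonist of the same pathway fell together. Apln, which encodes the peptide hormone apelin, had the deepest fall of the genes named by the rule, from 18.2, 22.3 and 30.7 to 5.53, 5.79 and 4.78 CPM (4.41-fold lower, −2.14 ± 0.40, adjusted p = 0.0297). Gper1, a membrane oestrogen receptor, fell from 43.2, 31.6 and 32.8 to 18.4, 11.8 and 13.9 CPM (−1.28 ± 0.24, adjusted p = 0.0306). None of 30 Wnt pathway genes passed. Leaving out single libraries ended these calls for Bmp4 (control library 1 or 2 or combination library 1 or 2, adjusted p from 0.0506 to 0.0831), Pmepa1 (control library 1 or combination library 1 or 2, 0.0527 to 0.0699) and Chrdl1 (control library 1 or 2 or combination library 2 or 3, 0.0885 to 0.181). Apln lost its call when any 1 library was left out (0.0669 to 0.166), and Gper1 when any other than control library 3 was (0.0538 to 0.208).

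Fam102a and Tceal9 were among the 5 largest losses in CPM. Fam102a fell from 628, 676 and 470.1 to 174, 207 and 194 CPM (3.08-fold lower, log2 −1.63 ± 0.17, adjusted p = 0.000732), and was 121, 143 and 149 CPM with 25(OH)D alone. Tceal9 fell from 989, 1018 and 881 to 549.7, 529.9 and 506 CPM (−0.87 ± 0.12, adjusted p = 0.00622), and its difference from 25(OH)D alone was 0.12 ± 0.12 with a 95% interval from −0.15 to 0.39. Fam102a lay above its level with 25(OH)D alone in every library, and the difference of 0.48 ± 0.17 did not pass (adjusted p = 0.208). Tceal9 lost its call without combination library 2 (adjusted p = 0.058).

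Metabolic genes were called singly, 1 to a list. Dgat1, which makes triglyceride from diacylglycerol, rose from 87, 63.4 and 60.7 to 248, 243 and 272 CPM (3.61-fold, 1.85 ± 0.15, adjusted p = 9.16e-05) and was the only called member of 34 genes of fatty acid and triglyceride metabolism (median 0.01). It stood at 882, 1024 and 945 CPM with 25(OH)D alone. Hsd17b7, an enzyme of cholesterol synthesis, rose from 105, 85.6 and 192 to 479.9, 391 and 318 CPM (1.64 ± 0.30, adjusted p = 0.0269) while the other 26 tested genes of that pathway did not pass and the list median was −0.22. Its difference from 25(OH)D alone was −0.22 ± 0.29 with a 95% interval from −0.86 to 0.41. Ldha, which makes lactate from pyruvate, fell from 681, 671 and 781 to 426, 365 and 393 CPM (−0.85 ± 0.13, adjusted p = 0.00711), the 1 call among 33 glycolysis and hypoxia genes. Mthfd2, a mitochondrial enzyme of folate metabolism, fell from 173, 134 and 121 to 66.5, 59.8 and 80.4 CPM (−1.05 ± 0.17, adjusted p = 0.0123), the 1 call among 31 stress response genes. Hsd17b7 lost its call without control library 1 or 2 or combination library 1 or 2 (adjusted p from 0.106 to 0.156). Ldha lost it without combination library 2 (0.0725), and Mthfd2 without control library 1 or combination library 1 or 2 (0.0683 to 0.0951).

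Genes of growth arrest and of early signalling were called in both directions. The called shares were 11.1% and 8.33% of those tested, against 0.723% of all genes tested. Of 27 genes of the p53 and growth arrest list Sesn1 and Gadd45a rose and Gadd45g fell (median 0.07). Sesn1, a stress-induced inhibitor of mTORC1, rose from 76, 108 and 85.2 to 417, 351 and 323 CPM (4.05-fold, 2.02 ± 0.24, adjusted p = 0.00151). Gadd45g, of the same family as Gadd45a, fell from 70.7, 71.4 and 57.3 to 33, 34 and 32 CPM (−1.01 ± 0.19, adjusted p = 0.0282), so 2 relatives moved in opposite directions. None of 41 genes of DNA replication and mitosis passed (median −0.13). Phlda1 rose from 5.52, 9.91 and 15.9 to 68.8, 53.5 and 33.9 CPM (2.31 ± 0.41, adjusted p = 0.0215). Samhd1, which degrades deoxynucleotides and restricts viruses, rose from 328, 329.8 and 462 to 765, 689 and 632 CPM (0.90 ± 0.17, adjusted p = 0.0353), while none of 28 interferon response genes passed. Gadd45g and Samhd1 lost their calls when any 1 library was left out other than control library 3 (adjusted p from 0.103 to 0.151 and 0.09 to 0.219), and Phlda1 without control library 1 or 2 or combination library 1 or 2 (0.0864 to 0.123).

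Itpr2, a calcium release channel of the endoplasmic reticulum, rose from 100.2, 94 and 94 to 155, 165 and 160.0 CPM (1.67-fold, 0.74 ± 0.11, adjusted p = 0.0071) against 1057, 1106 and 1014 CPM with 25(OH)D alone. It was the 1 called member of 43 calcium genes. Dstn, an actin-depolymerizing factor, rose from 179, 245 and 179 to 417, 436 and 485 CPM (1.15 ± 0.18, adjusted p = 0.01), the 1 call among 37 actin genes. Itpr2 lost its call without combination library 2 (adjusted p = 0.0638), and Dstn without control library 1 or combination library 2 (0.058 to 0.0778).

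A few genes stood higher in the combination than in both control and 25(OH)D alone. Ier3, an early response gene of survival signalling, was at 147, 161 and 155 CPM in control, 129, 119 and 110.1 CPM with 25(OH)D alone and 285, 282 and 294 CPM in the combination. It rose by 0.89 ± 0.12 over control (adjusted p = 0.00302) and lay 1.27 ± 0.12 above 25(OH)D alone (adjusted p = 6.21e-05). Tns1, an adaptor of focal adhesions, was at 1106, 1186 and 1392, 1215, 1217 and 981 and 2189, 2150.3 and 2007 CPM in the same order (0.79 ± 0.13 over control, adjusted p = 0.0145, and 0.89 ± 0.13 over 25(OH)D alone, adjusted p = 0.00175). In both genes all 3 combination libraries lay above all libraries of the other 2 groups.

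Crispld2 and Pik3r1 are not covered by the naming rule and were picked on their values. Crispld2, a secreted protein, was at 39.3, 54.2 and 40.9 CPM in control, 12, 13.5 and 12.1 CPM with 25(OH)D alone and 108, 96.9 and 98.7 CPM in the combination, so it was lower than control in the one treatment and higher in the other. It rose by 1.17 ± 0.23 over control (adjusted p = 0.0406), while 25(OH)D alone differed from control by −1.83 ± 0.25 (adjusted p = 0.000461), and the combination lay 3.01 ± 0.26 above 25(OH)D alone (adjusted p = 3.25e-05). Pik3r1, the regulatory subunit of phosphoinositide 3-kinase, was at 271, 288 and 206, 256, 315 and 278 and 446, 478 and 491 CPM (0.88 ± 0.15 over control, adjusted p = 0.0213). Cyp26b1, which degrades retinoic acid, was at 292, 221 and 459, 715, 534 and 523 and 919, 1080.2 and 735 CPM (1.49 ± 0.27 over control, adjusted p = 0.0269), and its difference from 25(OH)D alone was 0.63 ± 0.27 with a 95% interval from 0.04 to 1.21, which did not pass after adjustment over all genes (adjusted p = 0.377). The call of Crispld2 over control was lost when any 1 library was left out (adjusted p from 0.0855 to 0.219). Tns1 and Cyp26b1 lost theirs without control library 1 or 2 or combination library 1 or 2 (0.069 to 0.114 and 0.0864 to 0.156), and Pik3r1 without control library 1 or any combination library (0.0641 to 0.108).

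Beside Vdr and Flrt1, several called rises lay near their level with 25(OH)D alone. The following were picked for this on their values, so their nearness is a description. Mylk3 was at 19.4, 22.1 and 25.2 CPM in control, 70.3, 80.5 and 60.0 CPM with 25(OH)D alone and 82.5, 73.8 and 51.1 CPM in the combination (1.63 ± 0.23 over control, adjusted p = 0.00464). Ttyh3 was at 36.4, 49.5 and 42.8, 185, 175 and 108 and 142, 148 and 115 CPM (1.65 ± 0.23, adjusted p = 0.00435). Their differences from 25(OH)D alone were −0.02 ± 0.22 for Mylk3 (95% interval from −0.49 to 0.45) and −0.21 ± 0.22 for Ttyh3 (from −0.69 to 0.26). The libraries of both treatments overlapped in each gene and lay above all control libraries. Psg17, with few counts, was at 1.2, 1.05 and 1.19, 4.55, 6.99 and 5.02 and 5.32, 6.03 and 5.22 CPM, with a difference from 25(OH)D alone of 0.00 ± 0.28 (from −0.62 to 0.61).

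**Figure D3:**
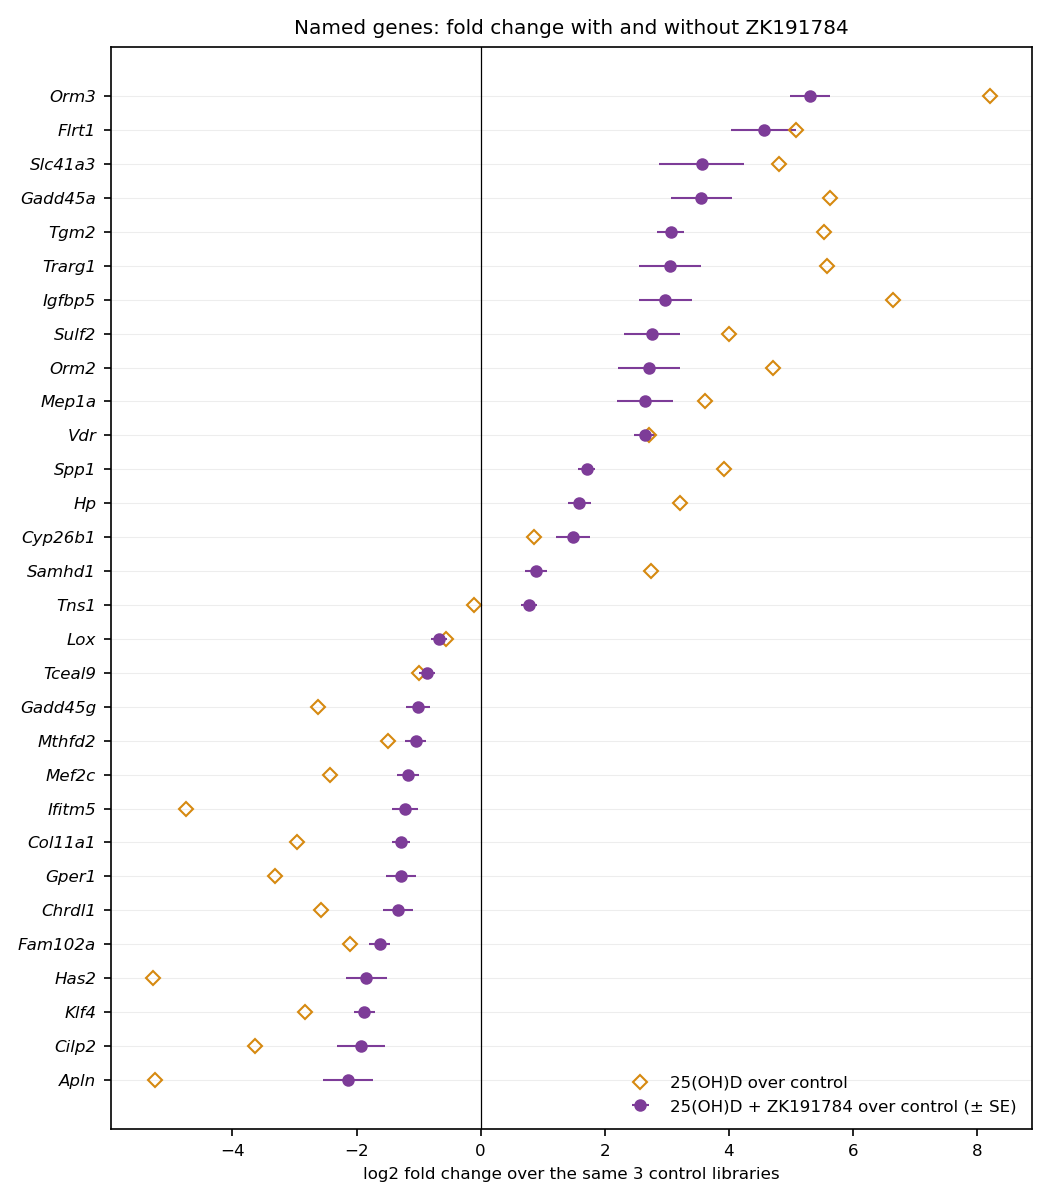
Log2 fold change over the same 3 control libraries of 30 named genes in the combination (purple circles, bars ± SE) and with 25(OH)D alone (open orange diamonds). Most diamonds lay further from 0 than the circle beside them, Vdr and Lox lay together, and Cyp26b1 and Tns1 lay further to the right in the combination. Both series share the control libraries and so are not independent.

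More genes that held in every alternative were picked by that property with their values known, and those given here rose. Klhl33 went from 62.3, 73.3 and 83.7 to 434, 353 and 306 CPM (2.32 ± 0.23), Dpep1, a membrane dipeptidase, from 69.1, 104 and 58.5 to 262, 263 and 275 CPM (1.78 ± 0.20), and Pitpnm2 from 13.7, 20.2 and 13.6 to 40.9, 47.5 and 49.6 CPM (1.53 ± 0.18). Itga1, the collagen-binding integrin subunit alpha 1, went from 59, 67 and 72.3 to 162, 129.7 and 129 CPM (1.09 ± 0.14), and Ksr1, a scaffold of the RAF to ERK cascade, from 34.8, 27.2 and 29.3 to 67.4, 68 and 78.7 CPM (1.23 ± 0.16). Uaca rose by 1.25 ± 0.13, and Map4k4, a kinase, by 0.96 ± 0.13. The edgeR adjusted p of these genes lay between 0.000398 (Klhl33) and 0.00414 (Map4k4).

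The genes of phosphate and FGF23 control, which the series title puts at the centre of the study, gave no call in this comparison as fitted. Fgf23, the phosphate-lowering hormone of bone, had 1 count over the control libraries and 2 over those of the combination, a ratio of 1.92 with a 95% exact interval from 0.100 to 113.5 for counting error only, which is not detectable at this depth. None of 18 genes of FGF23 regulation and processing passed (median −0.04), while 1 did without the filter, 1 with DESeq2 and 5 with the library ratio as covariate. Phex, an endopeptidase whose loss raises FGF23, was at 20.6, 15.8 and 21.6 CPM in control and 10.8, 9.16 and 6.96 CPM in the combination. The groups did not overlap, as in 11.8% of all genes tested. The difference of −1.10 ± 0.42 did not pass (adjusted p = 0.536), though it did with the library ratio as covariate (adjusted p = 0.0191). Galnt3, which protects FGF23 from cleavage, differed by −0.11 ± 0.41.

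None of 17 genes of mineralization and phosphate transport passed (median −0.13), while 1 did without the filter, 1 with DESeq2 and 3 with the covariate. Enpp1, which makes the mineral inhibitor pyrophosphate, was at 4.56, 2.74 and 5 CPM in control and 8.39, 10.6 and 10.0 CPM in the combination (1.24 ± 0.29, adjusted p = 0.0928), and it passed in 3 of the 13 alternatives, those with no filter, the covariate and DESeq2. Alpl, the alkaline phosphatase that removes pyrophosphate, differed by 0.15 ± 0.21 with a 95% interval from −0.31 to 0.61. Bglap, osteocalcin, differed by −0.04 ± 0.41, with control libraries at 769.7, 577 and 1859 CPM and those of the combination at 1157, 1228 and 727 CPM, which overlap. Reads of Bglap and its near-identical copy may be split. Tnfrsf11b, the decoy receptor osteoprotegerin, differed by −0.41 ± 0.42, and its ligand gene Tnfsf11 had 0 counts in control and 2 in the combination. Of these Enpp1 had groups that did not overlap, as had 11.8% of all genes tested.

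Over the 34 gene lists 34 of 731 tested genes were called, 22 higher and 12 lower, where 0.723% of all genes tested were called. The lists overlap and were chosen for this tissue and with earlier results of these data known, so the difference between these shares is a description. Lists with no call were those of FGF23 regulation, mineralization, small leucine-rich proteoglycans, matrix proteases, glucocorticoid response, DNA replication, oxidative stress, the Wnt pathway and interferon response.

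**Figure D4:**
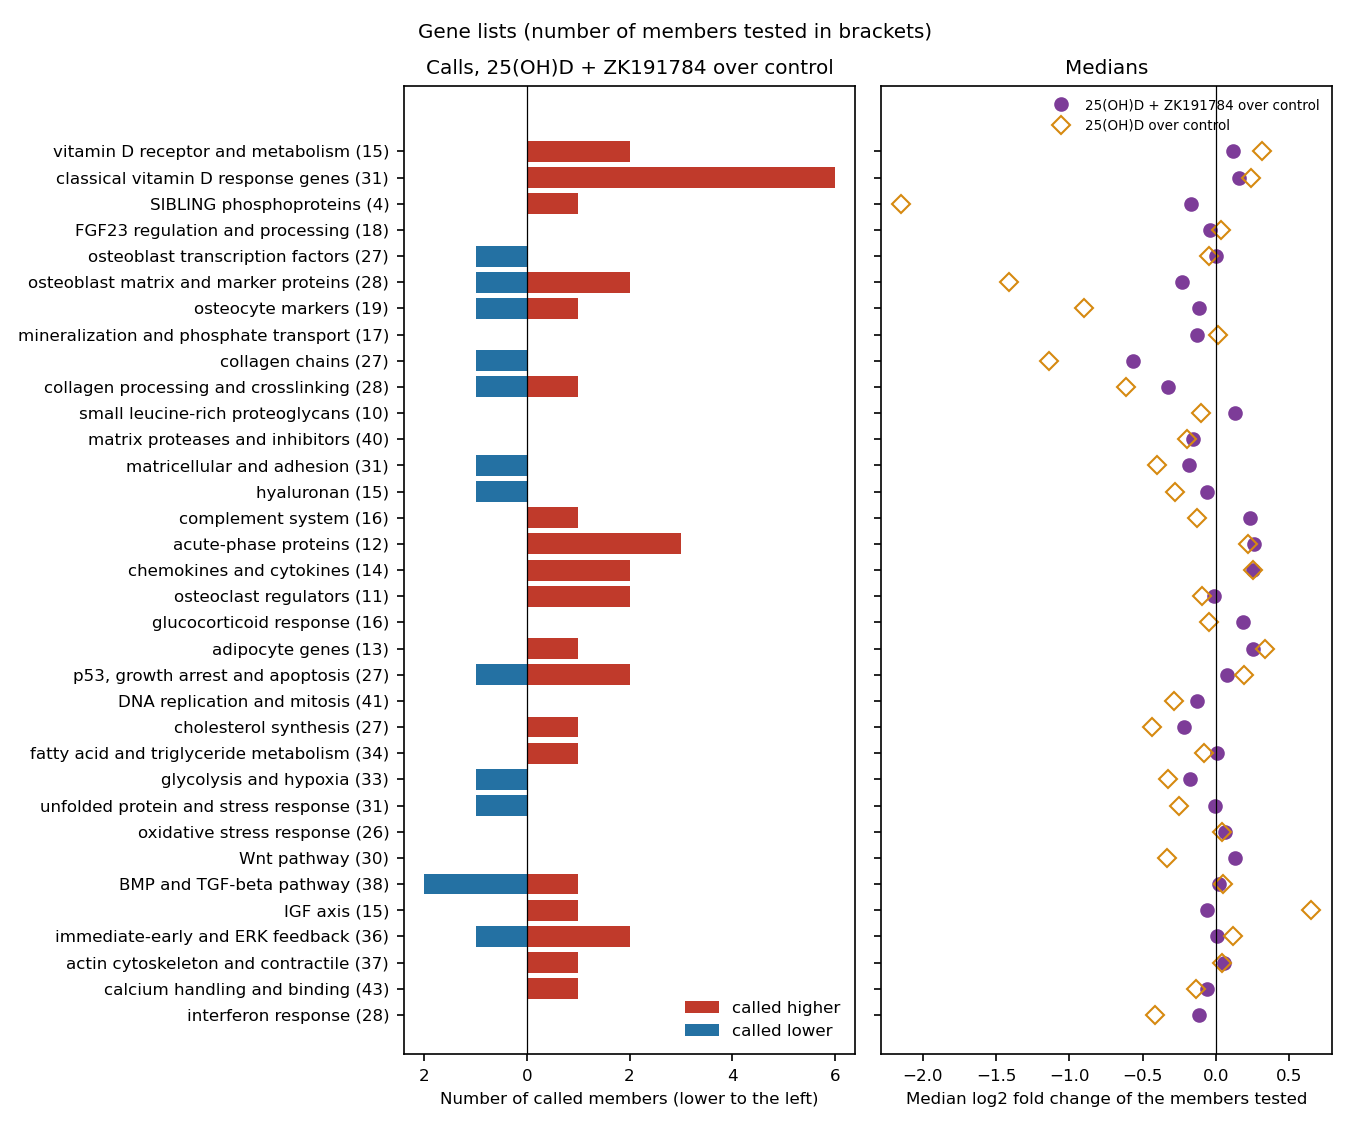
Left, number of called members of each of the 34 gene lists in the combination over control, rises in red to the right and falls in blue to the left, with the number tested in brackets. Right, median log2 fold change of the tested members in the combination (purple circles) and with 25(OH)D alone (open orange diamonds) over the same control libraries. The list of classical vitamin D response genes had 6 calls, and the collagen chains had the lowest median in the combination, −0.57.

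**Figure D5:**
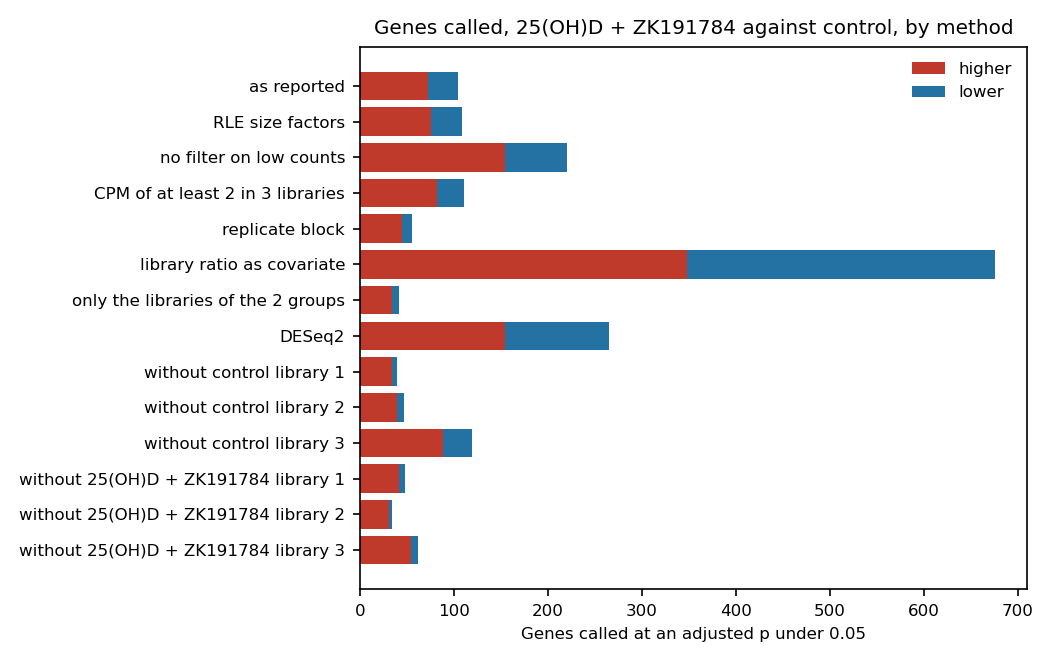
Number of genes called in the combination over control at an adjusted p under 0.05, rises in red and falls in blue, as reported (104) and under each of 13 alternatives. The count ran from 34 without combination library 2 to 676 with the library ratio as covariate, and rises were more than falls in each.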

How the data were processed

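The values are counts per gene symbol in 12 libraries as deposited, made by the authors from TRIzol-extracted RNA with QuantSeq, which reads the 3′ ends of transcripts. STAR 2.7.9a, featureCounts (Subread 2.0.3), DESeq2 1.38.2 and mm39 are named in the submitters' processing notes. Neither the strand setting nor the annotation release is given in the sources used here, and overlapping and antisense genes cannot be told apart. Of 56691 genes 20212 had no counts, and edgeR's filterByExpr (minimum count 10, total 15) left 14394 with 99.4% of the counts. One quasi-likelihood model (edgeR 4.0.16, R 4.3.3, TMM scaling, robust dispersion, no block) was fitted to all 12 libraries with 1 coefficient per group. Each SE is the log2 fold change divided by the root of its F, and levels are TMM-scaled CPM. Genes of 0 control counts were set against 3 counts over the group. A value of 0.05 was the threshold of the adjusted p.

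The members, the 34 lists, the 18 core genes and the naming rule were chosen with earlier results of these data known. Beside the core genes the rule named the 12 largest called rises and falls (average log2 CPM at least 1, groups apart, plain symbol), the 5 largest CPM gains and losses, and up to 3 called members per list. It also named up to 2 called members per list that went against the list's other calls. On simulated data the fit recovered 26% of planted 2-fold and 87% of planted 4-fold changes. It made 8 wrong calls among those of the 14394 genes that had no planted change. Changes were planted only in genes above a minimum average level. Noise was drawn separately for each gene and library, so the axis shared between genes was not simulated. Alternatives were RLE scaling, no filter, a CPM of 2 in 3 libraries, DESeq2 1.42.0, a replicate block, the library ratio as covariate, the 2 groups alone, and each library left out. One called gene is not reported here.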

Additional observations from a re-analysis of the deposited data

How the results depend on the processing

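The 104 calls of the combination against control became 220 without the filter on low counts, 265 with DESeq2, 676 with the library ratio as covariate, 56 with the replicate block and 42 with the libraries of the 2 groups alone, and 34 to 119 when 1 library was left out. Of the 104 genes 103 were also called with DESeq2, where Gipc2 had no adjusted p, 104 with the covariate, 55 with the block and 40 with the 2 groups alone. RLE scaling gave 109 and the filter at a CPM of 2 gave 111. No called gene changed direction in the 13 alternatives. The combination against 25(OH)D alone gave 508 calls, 334 with the block, 1650 with the covariate, 797 with DESeq2, and 269 to 428 without 1 library. 25(OH)D alone against control gave 1250 calls, 2857 with the covariate, 763 with the 2 groups alone, and 813 to 1266 without 1 library. Of the list genes 34 were called, and 60 without the filter, 140 with the covariate, 20 with the 2 groups alone, 64 with DESeq2 and 15 to 38 without 1 library. The cause of these shifts was not tested. Same-numbered control and combination libraries correlated at −0.55, −0.03 and −0.63 within groups. No control library correlated best with the combination library of its own number. The axis with 58.9% of the variance within groups entered these correlations. They therefore cannot show whether libraries of the same number shared a culture or batch. Depth limits Fgf23, Cyp27b1, Cyp2r1 and Tnfsf11, which had too few counts to be fitted.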

Other observations

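Plekhh2 had one library far apart. It was at 28.1, 160 and 33.3 CPM in the control libraries and at 48.9, 20522 and 276 CPM in those of the combination, so combination library 2 stood alone. The fitted difference of 6.56 ± 1.80 on the log2 scale did not pass (adjusted p = 0.195). The gene was picked on its values.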
